A study of Rattus norvegicus with 20 samples.

Results

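Core promoter peaks are here the regions that the authors list as peaks of the NF-kB subunit p65 and that lie close to a transcription start. Whether p65 bound each of them was not tested. In each of 20 promoter tiling arrays of rat liver, a peak of the authors' list was counted as a core promoter peak when its centre lay within 500 bp of at least 1 annotated start listed for it, upstream or downstream. This distance rule used no measured level. It found 21724 core promoter peaks among 108718 peaks in all, or 20.0%. The 20 arrays came from livers of male wild-type Sprague Dawley rats aged 8 to 10 weeks, which for 5 weeks were fed a liquid diet with 36% of its calories as ethanol or a pair-fed diet with carbohydrate in its place. All rats underwent a 70% partial hepatectomy. The lobes removed at surgery gave the 0h arrays, and liver left in place was taken for the 1h and 6h arrays. There were 3 arrays per diet for 0h, 3 for 1h and, for 6h, 4. The title of the series asks whether ethanol feeding alters NF-kB binding during regeneration. Whole liver was used, so a change of p65 at a promoter within a cell type and a change in the mixture of cells cannot be told apart.

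NF-kB p65 (RelA) is a transcription factor that is held in the cytoplasm by inhibitor proteins and moves to the nucleus when cytokines such as TNF signal through their receptors. In the liver, partial hepatectomy is followed within minutes to hours by cytokine release from resident macrophages, NF-kB activation and the induction of immediate early genes in hepatocytes. The core promoter is the stretch around the start where RNA polymerase II and the general factors assemble. Promoters of broadly used genes are often rich in G, C and CpG dinucleotides, whereas promoters of tissue-restricted genes, olfactory and vomeronasal receptors among them, are more often poor in them and may carry a TATA box.

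Promoter sequences of 6 genes are given first, because the base composition of the promoters with a core peak separated the 1h from the 6h arrays without overlap. Mt1 and Igfbp1 had core peaks on all 6 arrays at 1h, as did Cpt1a. Vom2r6, Or52e8b and Adgrf5 had core peaks on all 8 arrays at 6h. The sequences run 5′ to 3′ from 250 bases before to 50 bases after the start of the RefSeq gene in assembly GRCr8, which may differ from the start that the arrays list. Capitals mark exact matches to GGGCGG (a GC box), TATAAA or CCAAT on either strand.
Mt1: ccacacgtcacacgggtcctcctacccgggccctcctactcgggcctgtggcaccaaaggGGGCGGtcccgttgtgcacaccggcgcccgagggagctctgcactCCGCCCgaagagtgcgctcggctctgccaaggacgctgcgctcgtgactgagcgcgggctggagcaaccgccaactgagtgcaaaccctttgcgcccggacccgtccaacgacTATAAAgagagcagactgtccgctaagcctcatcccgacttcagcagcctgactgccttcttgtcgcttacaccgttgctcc
Igfbp1: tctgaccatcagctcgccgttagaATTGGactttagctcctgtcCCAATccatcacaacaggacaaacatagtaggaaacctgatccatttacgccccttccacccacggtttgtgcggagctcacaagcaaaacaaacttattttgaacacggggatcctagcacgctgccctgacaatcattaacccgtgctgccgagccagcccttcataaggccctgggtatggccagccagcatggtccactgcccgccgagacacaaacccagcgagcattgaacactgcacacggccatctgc
Cpt1a: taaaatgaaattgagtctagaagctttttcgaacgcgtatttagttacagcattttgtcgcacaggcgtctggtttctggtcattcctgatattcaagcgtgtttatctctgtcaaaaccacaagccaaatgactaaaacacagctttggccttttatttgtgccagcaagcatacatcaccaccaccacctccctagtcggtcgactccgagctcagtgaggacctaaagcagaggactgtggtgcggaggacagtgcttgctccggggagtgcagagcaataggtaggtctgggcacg
Or52e8b: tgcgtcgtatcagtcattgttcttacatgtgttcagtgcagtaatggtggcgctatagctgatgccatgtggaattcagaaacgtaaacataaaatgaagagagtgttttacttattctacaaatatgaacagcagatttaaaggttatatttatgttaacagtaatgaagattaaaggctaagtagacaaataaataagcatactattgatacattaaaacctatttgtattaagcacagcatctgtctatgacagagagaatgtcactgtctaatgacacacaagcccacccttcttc
Vom2r6: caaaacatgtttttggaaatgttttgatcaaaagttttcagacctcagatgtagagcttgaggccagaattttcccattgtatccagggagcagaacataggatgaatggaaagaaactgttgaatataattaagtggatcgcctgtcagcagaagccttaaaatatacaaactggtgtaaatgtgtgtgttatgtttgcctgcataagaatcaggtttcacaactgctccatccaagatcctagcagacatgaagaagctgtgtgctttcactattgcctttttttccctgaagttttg
Adgrf5: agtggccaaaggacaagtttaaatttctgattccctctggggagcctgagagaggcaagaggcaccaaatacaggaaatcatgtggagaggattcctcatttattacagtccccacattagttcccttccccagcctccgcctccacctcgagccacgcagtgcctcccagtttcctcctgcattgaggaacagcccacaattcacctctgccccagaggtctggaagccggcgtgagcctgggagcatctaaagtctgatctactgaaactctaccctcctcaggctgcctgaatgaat
The Mt1 promoter, at chr19:10832926-10833225 on the minus strand, is 65% G and C and holds 2 GC boxes and 1 TATAAA. The Igfbp1 promoter, at chr14:86261027-86261326 on the plus strand, is 54% G and C with 2 CCAAT motifs. That of Cpt1a, at chr1:209995910-209996209 on the plus strand, is 48.3% G and C. Among the promoters with peaks at 6h, those of the receptors are poorest in G and C, with 34.7% for Or52e8b (chr1:168825696-168825995, minus strand) and 38.7% for Vom2r6 (chr1:3025673-3025972, plus strand). Adgrf5 (chr9:25121188-25121487, minus strand), at 53.0%, does not share that composition. Of all 27457 RefSeq promoters of this length, 34.9% hold GGGCGG, 14.3% TATAAA and 37.7% CCAAT. A match describes the letters and shows no binding site.

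Before the results, several arrays stood apart. Per the identifiers that came with the arrays, they were hybridised in 4 runs on 11 slides and came from 16 animals, 4 of which gave 2 arrays. The first run held 5 of the 6 arrays at 0h, and the third run 11 of the 14 later arrays, so that run and the contrasts with 0h were largely confounded. The second run was 1 slide with carbohydrate 1h replicate 1, ethanol 0h replicate 2 and ethanol 1h replicate 1. The likeness of arrays was measured as the share of listed starts with a core peak on both, out of those with a core peak on either. Ethanol 0h replicate 2 shared 34.0% with ethanol 1h replicate 1, an array of the same animal and slide, and 28.4% with carbohydrate 1h replicate 1 on that slide, but 5.25% on average with the other 0h arrays. Carbohydrate 0h replicate 3 and ethanol 0h replicate 3 shared 18.0% and 18.3% on average with the 6h arrays, and 5.31% and 2.92% with those at 1h. Those 2 shared 23.1% with each other, and carbohydrate 0h replicate 3 shared 14.8% with ethanol 0h replicate 1, while no other pair of 0h arrays shared over 12.9%. Their animals also gave carbohydrate 6h replicate 2 and ethanol 6h replicate 1, with which they shared 17.0% and 19.7%. Carbohydrate 0h replicate 2, whose animal gave carbohydrate 1h replicate 1, shared 6.21% with that array, 7.31% on average with 1h arrays and 2.64% with 6h arrays. The part of the shared animal was not tested. Peak measures and counts of calls that rest on 0h are given with arrays left out. The values of single genes and lists against 0h are from all arrays.

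**Figure D1:**
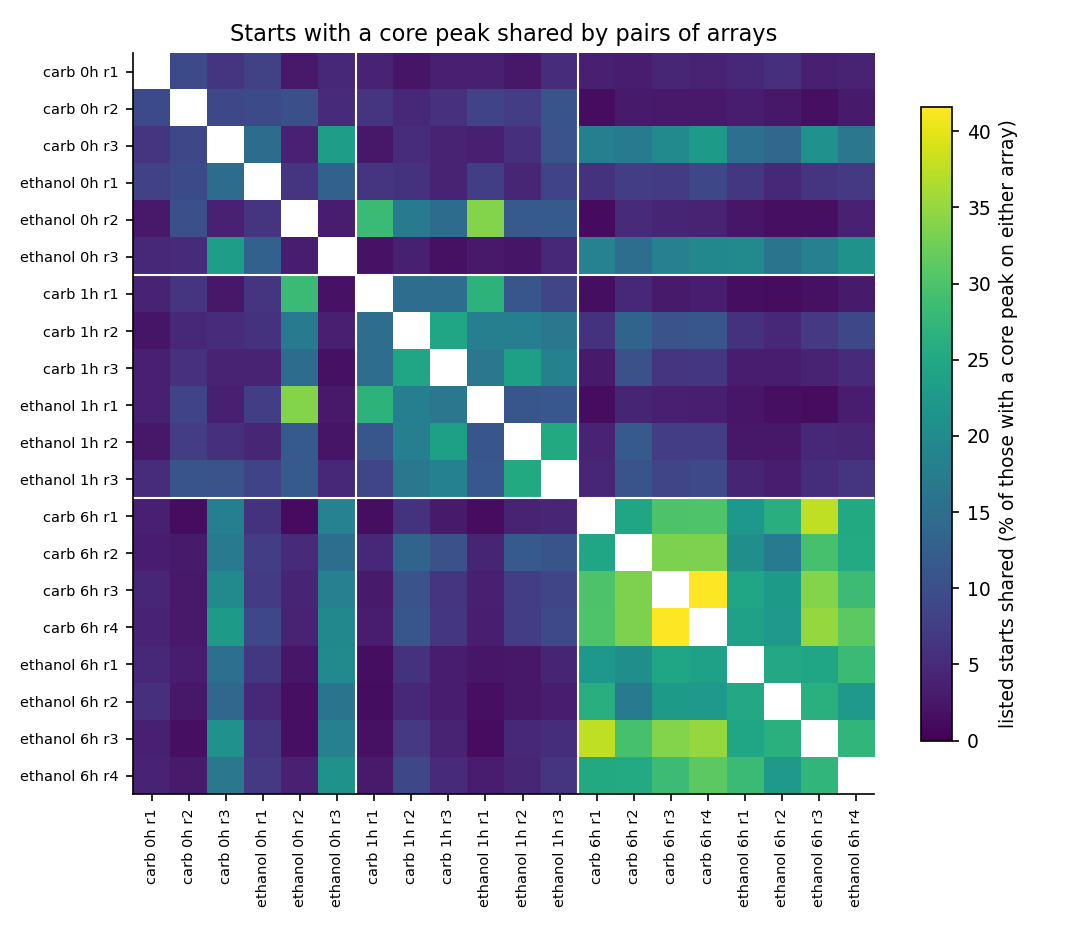
Share of listed transcription starts with a core promoter peak on both arrays of a pair, in percent of the starts with one on either, by colour; white lines separate 0h, 1h and 6h, "carb" is the carbohydrate diet and r the replicate. The 6h arrays form the brightest block, with a mean of 27.6%, and ethanol 0h replicate 2 is brighter against 1h arrays than against 0h arrays.

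In the same measure, pairs of 6h arrays shared 27.6% of their starts on average (from 17.2% to 41.6%, 28 pairs), and pairs of 1h arrays 17.3% (from 8.62% to 26.9%, 15 pairs). Pairs of 0h arrays shared 8.61%, from 2.86% to 23.1% over 15 pairs. A 1h array and a 6h array shared 5.21% on average over 48 pairs, with a highest value of 13.4%, below the lowest value among pairs of 6h arrays. Of 752 starts with a core peak on at least 2 carbohydrate arrays at 1h, 123 (16.4%) had one on at least 2 at 6h. The share of all starts that did was 9.69%. On ethanol it was 69 of 914 (7.55%), against 7.93% of all starts. Most such starts at 1h thus lacked such peaks at 6h, as did most starts of all. Pairs share arrays and are not independent, so the values of pairs carry no test.

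Core promoter peaks were between 170 and 2889 bp long, with a median of 558 bp, and their peak scores, which are the authors' and describe peak height, lay between 0.226 and 1.86. Of them, 98.1% lay near a single start and 1.86% near several, and 53.3% spanned a start. Their share of peaks was close to the share of probes within the same distance, 19.3%. The rule's limit cut through an even stretch: the 5927 peaks centred 401 to 500 bp from a start had a median score of 0.508 and length of 555 bp, and the 6326 peaks at 501 to 600 bp had 0.507 and 552 bp.

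Over all 20 arrays, core promoter peaks were a little taller, longer and more recurrent than the other peaks, most of it at 6h in value. The median score of core peaks averaged 0.500 against 0.490 for the others, a mean difference of 0.0109 ± 0.0124 (SD, n = 20 arrays) that was above 0 on 15 of 20 arrays (sign-flip permutation test, 100000 resamples, two-sided, p = 0.00086, adjusted over 3 measures 0.00129). The median length was 25.7 ± 31.6 bp greater, on 18 of 20 arrays (adjusted p = 0.00117). A peak of another array of the same group overlapped 61.3% of core peaks and 55.3% of the others, a difference of 5.98 ± 8.91 percentage points, above 0 on 14 of 20 arrays (adjusted p = 0.0078). Overlap is counted between arrays of a group, so these values are not independent as the test takes them to be. Longer peaks also overlap more easily. At 0h the difference in overlap was −1.17 ± 6.84 points and below 0 on 4 of 6 arrays, with a score difference of 0.00039 and a length difference of 5.58 bp. At 1h the 3 differences were 3.47 ± 7.95 points, 0.00669 and 23.9 bp (n = 6). At 6h they were 13.2 ± 5.27 points, 0.0219 and 42.0 bp, each above 0 on 8 of 8 arrays. Whether they differed between times was not tested. The difference in score was small beside its spread, and with peaks of FDR 0.05 or below it was 0.00392 (sign-flip permutation test, p = 0.197). With core peaks taken to 1000 bp, the difference in length turned to −18.6 bp.

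The number of core promoter peaks was lowest at 0h in value. On the carbohydrate diet the arrays had 328, 902 and 948 core promoter peaks at 0h, 1068, 1072 and 1340 at 1h, and 969, 1471, 1352 and 1372 at 6h. On the ethanol diet they had 443, 1160 and 739 at 0h, 978, 2159 and 1173 at 1h, and 930, 903, 1279 and 1138 at 6h. At 1h and 6h the carbohydrate arrays all lay above those of 0h, whereas on ethanol the 0h and later arrays overlapped, since ethanol 0h replicate 2 had more core peaks than 4 of the 7 later arrays on that diet. Over both diets the mean was 753 ± 317 (SD, n = 6) at 0h, 1298 ± 439 (n = 6) at 1h and 1177 ± 222 (n = 8) at 6h. The differences from 0h were 545 at 1h (exact permutation test within diet, two-sided, p = 0.03) and 423 at 6h (p = 0.0131), and neither passed after adjustment over 16 tests (exact permutation, adjusted p = 0.12 and 0.0784). With peaks of FDR 0.05 or below they were 336 and 248 and both passed (exact permutation, adjusted p = 0.032 and 0.0294). With the same number of peaks taken from each array, the 2874 highest by score, 6h exceeded 0h by 257 and passed (exact permutation, adjusted p = 0.00653). Leaving out 1 array at a time gave between 364 and 660 for 1h and between 324 and 518 for 6h, the last of them without ethanol 0h replicate 2 (exact permutation, adjusted p = 0.0406). The difference between 6h and 1h, −122, was smaller than the spread between arrays (exact permutation, adjusted p = 0.826). Its direction was not stable: it was 59.0 without ethanol 1h replicate 2, and with the same number of peaks from each array 6h exceeded 1h by 152 and passed (exact permutation, adjusted p = 0.0098).

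As a share of all peaks, core promoter peaks took 11.4%, 22.2% and 15.6% on the carbohydrate arrays at 0h, 21.9%, 20.0% and 22.1% at 1h, and 26.0%, 21.9%, 22.1% and 20.8% at 6h. On ethanol the shares were 12.8%, 19.6% and 15.9% at 0h, 16.5%, 25.6% and 12.5% at 1h, and 23.1%, 25.1%, 22.8% and 21.5% at 6h. The 6h arrays lay within a narrow band, between 20.8% and 26.0%, above all 0h arrays but carbohydrate 0h replicate 2. The mean share was 16.3 ± 4.05% at 0h (n = 6) and 22.9 ± 1.80% at 6h (n = 8), a difference of 6.65 percentage points (exact permutation test, two-sided, p = 0.00327, adjusted p = 0.0522) that lay between 5.41 and 8.10 with any 1 array left out. It passed without carbohydrate 0h replicate 2, at 8.10 points (exact permutation, adjusted p = 0.0305), and without ethanol 0h replicate 2, at 7.53 points (adjusted p = 0.0406). At 1h it was 19.8 ± 4.64% (n = 6; adjusted p = 0.382 against 0h). The value depended on where the promoter ended: it was 3.69 points for peaks within 250 bp (adjusted p = 0.0131) and −2.51 points within 1000 bp. With the same number of peaks taken from each array the difference was 8.93 points (adjusted p = 0.00653). In the 2 animals that gave a 0h and a 6h array, the share was 15.6% and then 21.9% on carbohydrate and 15.9% and then 23.1% on ethanol. In the 2 animals that gave a 0h and a 1h array it was 22.2% and then 21.9% on carbohydrate, with 902 and 1068 core peaks, and 19.6% and then 16.5% on ethanol, with 1160 and 978.

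**Figure D2:**
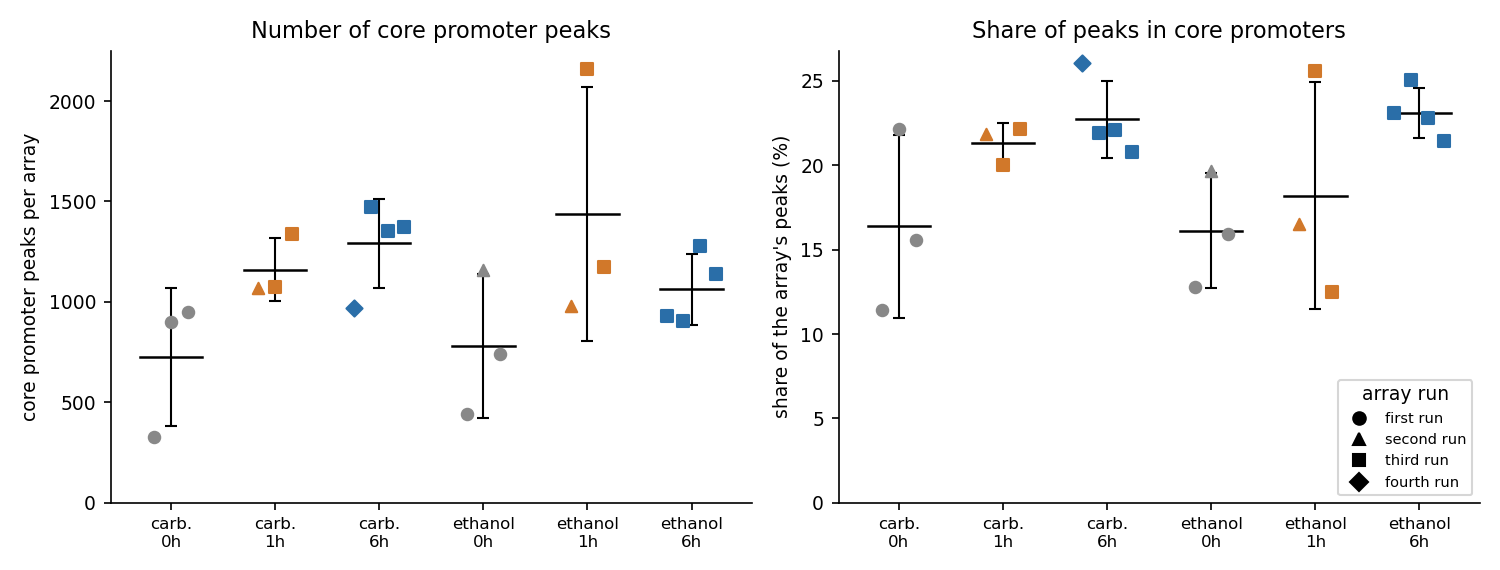
Number of core promoter peaks per array (left) and their share of the array's peaks in percent (right), by diet and time ("carb." is carbohydrate); each symbol is 1 array, its shape the array run, and bars give the group mean and SD. The 6h arrays sit between 20.8% and 26.0% in the right panel, while the 0h arrays spread from 11.4% to 22.2%.

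The diets did not differ beyond the spread between arrays in any of these measures. Over the 3 times the ethanol arrays differed from the carbohydrate arrays by 34.3 core promoter peaks (exact permutation test within time, two-sided, p = 0.854) and by −1.0 percentage points in share (p = 0.579). The median score of core promoter peaks differed by −0.000462 (exact permutation p = 0.994) and their median length by 7.83 bp (p = 0.723). The adjusted p over the 16 tests was at least 0.826 for each of the 4. None of 12 tests of whether the diet difference changed with time had an adjusted p below 0.6. The number of core peaks per array had an SD of 334 on carbohydrate and 448 on ethanol (n = 10 each).

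Core promoter peaks were longer at 6h in value. Their median length per array averaged 535 ± 32.8 bp at 0h, 552 ± 28.8 bp at 1h and 620 ± 70.4 bp (n = 6, 6 and 8) at 6h. The difference of 84.8 bp between 6h and 0h did not pass the threshold (exact permutation, p = 0.0147, adjusted p = 0.0784), and passed with peaks of FDR 0.05 or below, at 187 bp (adjusted p = 0.0294). Median scores were 0.457 ± 0.140 at 0h, 0.563 ± 0.109 at 1h and 0.486 ± 0.0618 at 6h, and no difference between times passed (lowest adjusted p = 0.269). Without ethanol 0h replicate 2 the score was 0.0875 higher at 6h than at 0h (exact permutation, adjusted p = 0.0406).

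Where core peaks lay relative to the start differed between times. Measured as the share of peaks in a 250 bp stretch over the share of probes there, the 0h arrays had a dip at the start, with 0.612 just upstream (0 to 250 bp) and 0.596 just downstream. At 1h the values there were 0.763 and 0.887. At 6h they were 0.810 upstream and 1.15 downstream, and rose to 1.94 at 250 to 500 bp downstream, where 1h had 1.40 and 0h had 1.04. Upstream of the core promoter, at 500 to 750 bp, the order over both diets together was the opposite, with 1.71 at 0h, 1.37 at 1h and 0.873 at 6h. On carbohydrate the values were 2.00, 1.15 and 0.908. On ethanol they were 1.42, 1.59 and 0.838, with 1h the highest.

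**Figure D3:**
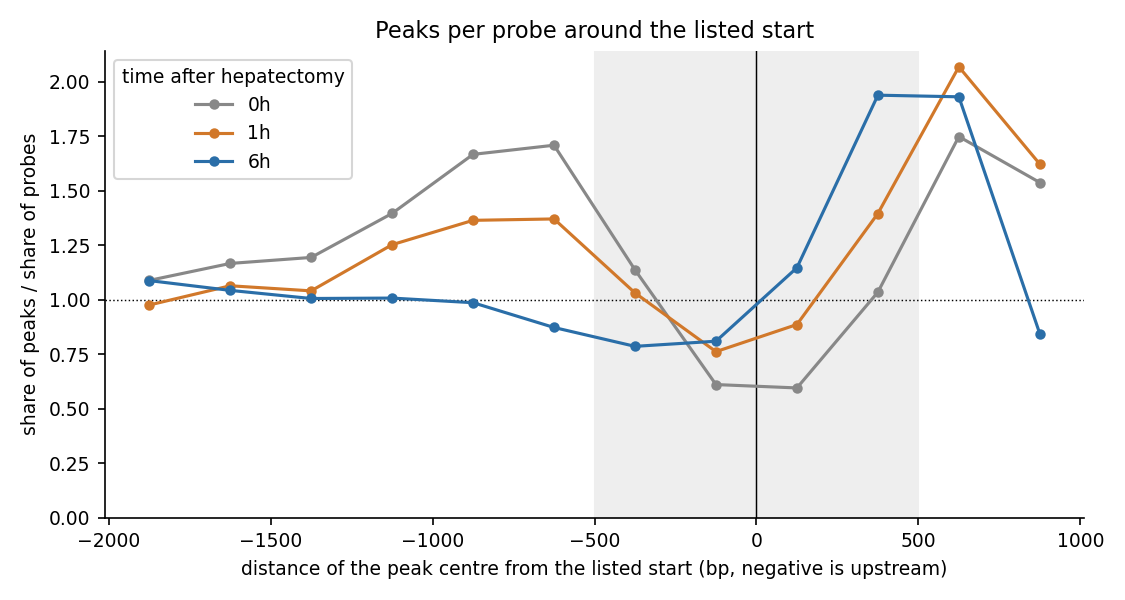
Share of peaks over share of probes in 250 bp stretches against the distance of the peak centre from the listed start in bp (negative is upstream), for 0h, 1h and 6h over both diets; the shaded band is the core promoter and the dotted line is an even spread over probes. At 6h the line climbs from 0.810 just upstream of the start to 1.94 at 250 to 500 bp downstream.

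A peak centre downstream of the start was most common at 6h. The share of core promoter peaks centred downstream was 39.3%, 37.1% and 55.2% on the carbohydrate arrays at 0h, 57.7%, 64.5% and 59.4% at 1h, and 69.8%, 64.9%, 68.9% and 70.4% at 6h. On ethanol it was 53.0%, 59.1% and 57.4% at 0h, 58.9%, 54.9% and 47.3% at 1h, and 66.2%, 65.3%, 65.4% and 67.0% at 6h. All 8 arrays at 6h lay above all 12 earlier arrays. The means were 50.2 ± 9.50% (n = 6) at 0h, 57.1 ± 5.72% (n = 6) at 1h and 67.2 ± 2.16% (n = 8) at 6h. In tests added after these values had been seen, 6h exceeded 0h by 17.1 points and 1h by 10.1 points (exact permutation within diet, two-sided, p = 0.000816 for both, the smallest that it can give; adjusted over 8 tests 0.00218). Among arrays of the third run alone, which holds no 0h array, 6h exceeded 1h by 10.5 points (adjusted p = 0.0133). The 1h and 0h arrays overlapped and differed by 6.92 points (adjusted p = 0.273). Leaving out 1 array at a time gave between 15.4 and 19.9 points for 6h against 0h and between 8.54 and 11.4 for 6h against 1h.

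The promoters with core peaks at 6h were poorer in G and C than those at 1h. A RefSeq promoter sequence was matched to 11242 of 14570 starts (77.2%), whose median was 57.7% G and C. The median over promoters with a core peak was 51.0%, 59.0% and 43.7% on the carbohydrate arrays at 0h, 58.0%, 53.3% and 56.0% at 1h, and 40.3%, 46.3%, 43.0% and 42.3% at 6h. On ethanol it was 49.0%, 57.3% and 40.3% at 0h, 57.0%, 56.7% and 55.3% at 1h, and 40.3%, 39.0%, 41.0% and 42.3% at 6h. All 6 arrays at 1h lay above all 8 at 6h, while the 0h arrays spread over both ranges, with the 2 arrays that resembled 6h at 43.7% and 40.3% and the one that resembled 1h at 57.3%. The difference between 6h and 1h was −14.2 points (exact permutation within diet, two-sided, p = 0.000816, the smallest that it can give; adjusted over the same 8 added tests 0.00218), and −13.1 points within the third run (adjusted p = 0.0133). Against 0h it was −8.22 points at 6h (adjusted p = 0.0196) and 6.00 points at 1h (adjusted p = 0.176; 7.94 without carbohydrate 0h replicate 2 and 8.11 without ethanol 0h replicate 2, adjusted p = 0.04 and 0.048). The diets differed by −1.37 points (exact permutation p = 0.525). Leaving out 1 array at a time gave between −14.8 and −13.7 points for 6h against 1h and between −10.4 and −6.11 for 6h against 0h.

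**Figure D4:**
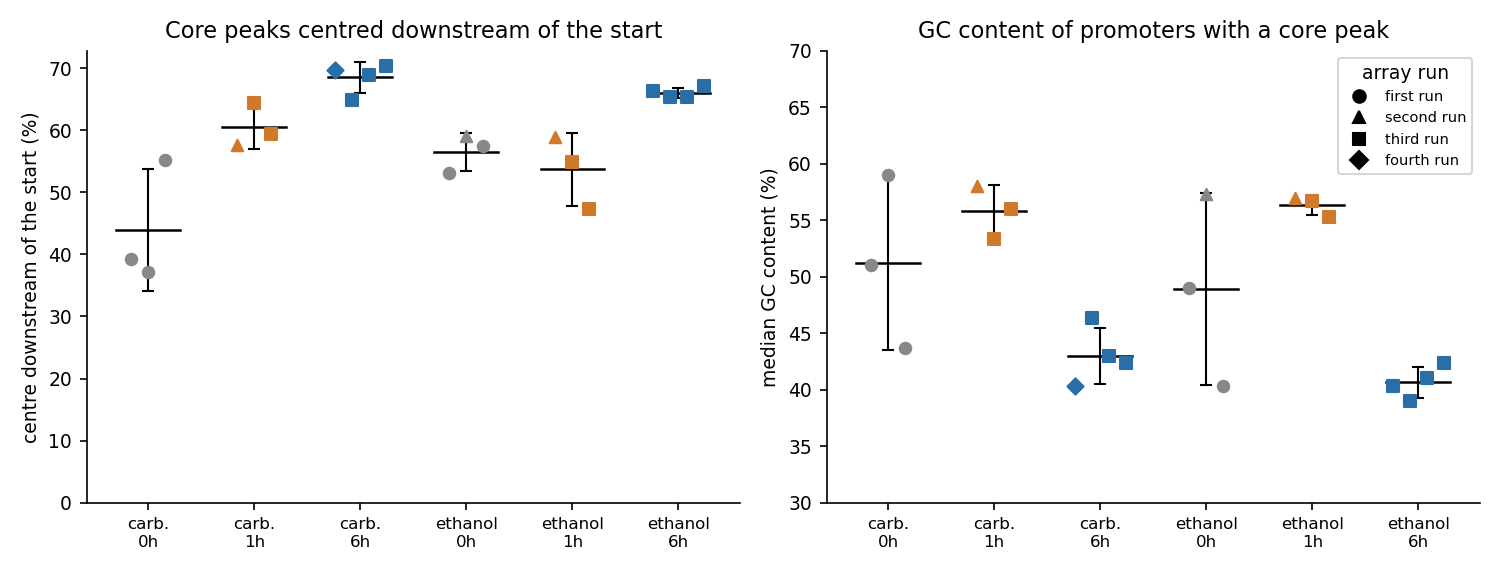
Share of core promoter peaks centred downstream of the start in percent (left) and median G and C content in percent of the promoters with a core peak (right; the axis starts at 30), by diet and time ("carb." is carbohydrate); each symbol is 1 array, its shape the array run, and bars give mean and SD. In the right panel the 1h arrays lie between 53.3% and 58.0% and the 6h arrays between 39.0% and 46.3%.

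Base composition went with the signal over all starts and not with peaks alone. Across starts, the correlation of promoter G and C content with core window signal was between −0.593 and −0.332 on the 8 arrays at 6h, between −0.206 and 0.145 at 1h and between −0.580 and 0.352 at 0h. Genes are not independent, and these values are descriptions without a test. Promoters with a core peak in both diets at 6h (589 promoters with a sequence) had a median of 38.7% G and C, 5.94% of them held GGGCGG and 34.5% TATAAA. For those with a core peak in both diets at 1h the values were 55.3%, 40.9% and 10.7%, and over all matched promoters 57.7%, 48.9% and 12.5%. The NF-kB consensus, a named motif searched on both strands, was found in 3.06% of the former, 5.95% of the latter and 8.55% of all matched promoters. The absence of these letters says nothing of p65 at a promoter.

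Core promoter peaks recurred at a limited set of starts. Of 14570 starts with at least 4 probes within 500 bp, 7488 (51.4%) had a core peak on at least 1 of the 20 arrays, 1545 on at least 5 and 115 on at least 10. A single start, listed as Sept14 (minus strand, start at position 27894644 of chromosome 12 in the arrays' own coordinates, whose genome build the sources used here do not give), had one on all 20. Its core window signal, the mean log2 value of the probes within 500 bp of the start, ran from 0.36 to 0.86 on the 20 arrays. Hand2, a heart and limb transcription factor, and a start of Slc15a1, a peptide transporter, had a core peak on 16 arrays and Fgf9, a growth factor, on 15. Rup2 and Sh3gl3, an endophilin, followed with 14.

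Within groups, recurrence grew with time. A start was called bound in a group when at least 2 of its arrays had a core peak there. On carbohydrate 255 starts (1.75% of all) were bound at 0h, 752 (5.16%) at 1h and 1412 (9.69%) at 6h. On ethanol 254 (1.74%) were bound at 0h, 914 (6.27%) at 1h and 1155 (7.93%) at 6h. The 6h groups have 4 arrays and so reach 2 more easily. Starts with a core peak on every array of a group numbered 43, 163 and 282 on carbohydrate at 0h, 1h and 6h, and 18, 154 and 157 on ethanol. Between the diets, 46 bound starts were common at 0h (18.0% of the carbohydrate and 18.1% of the ethanol starts), 309 at 1h (41.1% and 33.8%) and 727 at 6h (51.5% and 62.9%). The diets share no array, but their arrays share slides at 1h and in part at 6h.

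The level at each core promoter was compared with limma (all 20 arrays in 1 fit, Benjamini-Hochberg adjustment over 14570 starts, threshold 0.05), using the core window signal with each array centred on its median. Signs were turned so that peaks are positive, since 99.9% to 100% of core peaks lay below 0 in the deposited values. The direction of the deposited ratio is not stated, so which channel was the higher at the peaks is not known here. Between the diets no start passed at 0h, 1h or 6h (0% called each), while 534, 872 and 553 had an unadjusted p under 0.05. Without ethanol 1h replicate 1, 112 passed at 1h, 76 higher and 36 lower on ethanol, and among arrays of the third run alone 166 passed at 1h and 29 at 6h. Between 6h and 1h, a comparison added after the data were seen, 1480 starts rose (10.2% called) and 1573 fell (10.8%) on carbohydrate, and 1436 rose (9.86%) and 2381 fell (16.3%) on ethanol. Scaled to the same spread, the carbohydrate arrays gave 867 rises and 649 falls, so that rises outnumbered falls, and the ethanol arrays 1233 and 2246. With a window of 250 bp there were 826 rises and 1044 falls on ethanol. Between the diets, 914 of the rises (61.8% of those on carbohydrate, 63.7% on ethanol) and 873 of the falls (55.5% and 36.7%) were common to both. The diets share no array but are not independent here. Each slide with 1h arrays held both diets, as did a slide with 6h arrays, and both comparisons came from the same fit. Within the third run 2408 passed on carbohydrate, 2039 of them the same as over all runs, and 4847 on ethanol, 3475 of them the same. On carbohydrate 1329 passed without 1h replicate 1, 1880 without 6h replicate 1 and 1987 without 6h replicate 4, and on ethanol 1967 passed without 1h replicate 2.

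Against 0h the calls changed when single arrays were left out and when the run was made a term. Between 1h and 0h, 748 starts rose (5.13% called) and 423 fell (2.9%; 8.04% in either direction) on carbohydrate, and 19 rose (0.13%) and 3 fell (0.0206%; 0.151% in either) on ethanol. Between 6h and 0h, 811 rose (5.57%) and 643 fell (4.41%; 9.98% in either direction) on carbohydrate, and 50 rose (0.343%) and 37 fell (0.254%; 0.597% in either) on ethanol. With the array run as a term, 4 starts passed for 1h against 0h on each diet, and 345 on carbohydrate and 1057 on ethanol for 6h against 0h. Among the 0h arrays only ethanol 0h replicate 2 shared a run with later arrays. The run term therefore cannot tell the run from that array. On ethanol, leaving out 0h replicate 2 gave 1127 calls at 1h and 0 at 6h, and leaving out 0h replicate 3 gave 0 at 1h and 2193 at 6h. Without ethanol 0h replicate 1 there were 0 at either time, and without 1h replicate 1, 2 or 3 there were 931, 0 and 1 at 1h. Without 6h replicate 1, 2, 3 or 4 there were 1, 0, 0 and 17 at 6h. On carbohydrate, leaving out 0h replicate 1, 2 or 3 gave 414, 584 and 215 at 1h and 177, 6 and 2211 at 6h. Leaving out 1h replicate 1 or 2 gave 518 and 148 at 1h, and leaving out 6h replicate 1, 3 or 4 gave 958, 731 and 433 at 6h. Scaled to the same spread, the ethanol arrays gave 120 rises and 163 falls for 6h against 0h.

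The core promoter peak with the highest score lay at a metallothionein promoter at 1h. Mt1, which encodes a metal-binding stress protein, had core window signals of 0.08, 0.21 and 0.16 on the carbohydrate arrays at 0h, 0.82, 1.56 and 1.00 at 1h, and 0.10, 0.35, 0.20 and 0.18 at 6h. On ethanol they were 0.13, 0.37 and −0.06 at 0h, 0.64, 1.43 and 1.08 at 1h, and −0.04, −0.12, 0.08 and 0.06 at 6h. All 6 arrays at 1h lay above the other 14, and the peak here on one of them had the highest score of all core promoter peaks, 1.86. From 1h to 6h the signal fell by 0.92 ± 0.17 (SE) on carbohydrate (limma, adjusted p = 0.000652) and by 1.06 ± 0.17 on ethanol (adjusted p = 0.000245). From 0h to 1h it rose by 0.98 ± 0.18 (adjusted p = 0.00417) and 0.91 ± 0.18 (adjusted p = 0.0291), calls that did not pass with the array run as a term. The ethanol call was also lost without ethanol 0h replicate 1 or replicate 3, when no start passed. Its neighbour Mt2A, another metallothionein, fell from 1h to 6h by 0.80 ± 0.15 on carbohydrate (adjusted p = 0.000767) and 0.74 ± 0.15 on ethanol (adjusted p = 0.00103). The ethanol and xenobiotic metabolism list holds both. Of its 32 starts, 5 were bound on carbohydrate (15.6%, against 5.16% of all starts) and 6 on ethanol (18.8%, against 6.27%) at 1h. From 1h to 6h 6 fell and 1 rose on carbohydrate and 9 fell and 1 rose on ethanol, so that 18.8% and 28.1% fell, against 10.8% and 16.3% of all starts. The median difference of the list was −0.08 and −0.17, against −0.06 and −0.09 over all starts. Gstm1, a glutathione transferase, was another member that fell, by 0.67 ± 0.13 and 0.63 ± 0.13 (adjusted p = 0.00116 and 0.00137).

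Immediate early genes, which are induced without new protein synthesis, had bound starts at 1h and none at 6h. Of 40 starts in this list, 5 were bound on carbohydrate (12.5%, against 5.16% of all starts) and 6 on ethanol (15.0%, against 6.27%) at 1h. At 6h 0 were bound in either diet, against 9.69% and 7.93% of all starts. At 0h 2 were bound on carbohydrate (5.0%, against 1.75%) and 1 on ethanol (2.5%, against 1.74%), so that the list lay above all starts then too. Between 1h and 6h, 17 fell and none rose on carbohydrate, and 21 fell and none rose on ethanol. That is 42.5% and 52.5% of the list, against 10.8% and 16.3% of all starts that fell and 10.2% and 9.86% that rose. The median difference was −0.26 on both, against −0.06 and −0.09 over all starts. Igfbp1, which encodes a secreted protein that binds insulin-like growth factors, had signals of 0.31, 0.47 and 0.09 on the carbohydrate arrays at 0h, 0.94, 1.23 and 0.70 at 1h, and 0.06, 0.12, 0.11 and 0.01 at 6h. On ethanol they were 0.18, 0.95 and 0.12 at 0h, 0.86, 1.15 and 0.89 at 1h, and 0.12, 0.04, −0.16 and 0.10 at 6h. The value of 0.95 was that of ethanol 0h replicate 2, the array that shared its animal and slide with 1h arrays. All other 0h arrays and all 6h arrays lay below every 1h array. From 1h to 6h Igfbp1 fell by 0.89 ± 0.16 on carbohydrate (adjusted p = 0.000767) and by 0.94 ± 0.16 on ethanol (adjusted p = 0.000482).

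Ier3, an early response gene that protects cells from apoptosis and is a member of both the immediate early and the NF-kB target lists, had a like pattern. Its signals at 1h were 0.95, 0.97 and 0.79 on carbohydrate and 0.99, 1.07 and 0.90 on ethanol, and at 6h between −0.33 and 0.00 on carbohydrate and between −0.30 and 0.05 on ethanol. At 0h they were 0.24, 0.21 and −0.13 on carbohydrate and 0.17, 1.14 and −0.03 on ethanol, where 1.14 belongs to replicate 2. The 1h and 6h arrays did not overlap, and the fall was 1.01 ± 0.17 on carbohydrate (adjusted p = 0.000387) and 1.08 ± 0.17 on ethanol (adjusted p = 0.000255). Ier2, a small nuclear early response protein, fell by 0.58 ± 0.10 and 0.81 ± 0.10 (adjusted p = 0.000561 and 0.000102). Dusp6, a phosphatase that switches off ERK, fell on ethanol by 0.83 ± 0.12 (adjusted p = 0.000158) and on carbohydrate differed by −0.32 ± 0.12 (adjusted p = 0.0542), a difference between the diets that was not tested.

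The NF-kB target list holds genes widely described as regulated by this factor. Of its 44 starts, 19 had a core peak on at least 1 array (43.2%, against 51.4% of all starts). On carbohydrate 1, 4 and 1 were bound at 0h, 1h and 6h, and on ethanol 1, 2 and 2. At 1h this was 9.09% on carbohydrate and 4.55% on ethanol, against 5.16% and 6.27% of all starts, so that the ethanol share was near that of all starts. The share at 0h was 2.27% on each diet, against 1.75% and 1.74% of all starts. At 6h it was 2.27% and 4.55%, below the 9.69% and 7.93% of all starts. At 6h against 1h, 11 fell and 1 rose on carbohydrate and 11 fell and 3 rose on ethanol. A share of 25.0% thus fell on each diet, against 10.8% and 16.3% of all starts, and 2.27% and 6.82% rose, against 10.2% and 9.86%. The median differences, −0.09 and −0.13, were close to the −0.06 and −0.09 of all starts. Tnf, which encodes the cytokine that triggers NF-kB, had signals of 0.45, 0.35 and 0.35 on carbohydrate at 1h and 0.24, 0.15 and −0.12 on ethanol. At 6h the range was −0.07 to 0.08 on carbohydrate and −0.17 to 0.13 on ethanol. It fell by 0.38 ± 0.11 on carbohydrate (adjusted p = 0.018) and differed by −0.13 ± 0.11 on ethanol (adjusted p = 0.393). Cflar, an inhibitor of death receptor signalling, fell by 0.41 ± 0.11 and 0.67 ± 0.11 (adjusted p = 0.0113 and 0.000417), and Bcl2l1, which encodes the survival protein Bcl-xL, by 0.54 ± 0.12 and 0.55 ± 0.12 (adjusted p = 0.00235 and 0.0017).

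Acute phase genes, which encode plasma proteins that the liver makes in inflammation, were the group with the largest share of bound starts at 1h among the liver gene lists. Of 26 starts, 11 were bound on carbohydrate (42.3%) and 9 on ethanol (34.6%) at 1h, when 5.16% and 6.27% of all starts were, and 0 and 1 at 0h and 3 and 1 at 6h. At 6h against 1h, 11 fell on carbohydrate (42.3%, against 10.8% of all starts) and 16 on ethanol (61.5%, against 16.3%) and none rose. Median differences were −0.26 and −0.39, against −0.06 and −0.09 over all starts. Serpina3n, a protease inhibitor, had signals of 0.07, 0.01 and −0.26 on the carbohydrate arrays at 0h, 0.53, 0.97 and 0.62 at 1h, and 0.10, 0.06, 0.00 and 0.10 at 6h. On ethanol they were −0.10, 0.60 and −0.11 at 0h, 0.83, 0.80 and 0.46 at 1h, and 0.12, 0.17, −0.13 and 0.29 at 6h. The 1h arrays lay above all 6h arrays, and only ethanol 0h replicate 2 among the 0h arrays reached their range. It fell by 0.65 ± 0.14 (adjusted p = 0.00291) and 0.59 ± 0.14 (adjusted p = 0.00475). Orm1, an acid glycoprotein, fell by 0.45 ± 0.11 and 0.52 ± 0.11 (adjusted p = 0.00459 and 0.00163), and Itih3, which binds hyaluronan, by 0.45 ± 0.11 and 0.79 ± 0.11 (adjusted p = 0.0063 and 0.000158). Hpx, the haem carrier, kept a core peak on 3 arrays of each diet at 6h and differed from 1h by −0.26 ± 0.16 and −0.21 ± 0.16 (adjusted p = 0.26 and 0.324).

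Genes of amino acid and glucose metabolism had more bound starts at 1h than at 6h. Of 29 starts, 8 were bound on carbohydrate (27.6%, against 5.16% of all starts) and 5 on ethanol (17.2%, against 6.27%) at 1h. At 6h 1 was bound in each diet (3.45%, against 9.69% and 7.93% of all starts). Between 1h and 6h, 13 fell on carbohydrate (44.8%, against 10.8% of all starts) and 17 on ethanol (58.6%, against 16.3%), none rose, and the other 16 and 12 did not pass. Medians were −0.29 and −0.35. Hpd, a step of tyrosine breakdown, fell by 0.59 ± 0.14 and 0.65 ± 0.14 (adjusted p = 0.00523 and 0.00223). Tat, tyrosine aminotransferase, had a core peak on 1 array yet fell by 0.67 ± 0.11 and 0.51 ± 0.11 (adjusted p = 0.000372 and 0.00225), with signals from −0.46 to −0.11 on the 6h arrays.

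In lipid metabolism 6 of 39 starts were bound on carbohydrate (15.4%, against 5.16% of all starts) and 4 on ethanol (10.3%, against 6.27%) at 1h. At 6h 0 and 1 were bound (0% and 2.56%, against 9.69% and 7.93% of all starts). From 1h to 6h 10 fell and 1 rose on carbohydrate, and 8 fell and 1 rose on ethanol. The falls made up 25.6% and 20.5% of the list, against 10.8% and 16.3% of all starts, the latter pair being close, and with the arrays scaled to the same spread 2 fell on carbohydrate. Cpt1a, the entry step of fatty acids into mitochondria, had a core peak on all 6 arrays at 1h and on no other array. Its signals were 0.13, 0.10 and 0.07 at 0h, 0.35, 0.61 and 0.41 at 1h and 0.09, 0.05, 0.08 and 0.01 at 6h on carbohydrate. On ethanol they were −0.06, 0.35 and 0.01 at 0h, 0.35, 1.12 and 0.81 at 1h, and −0.13, −0.08, 0.06 and −0.16 at 6h. Ethanol 0h replicate 2 again had the level of the lowest 1h arrays. The fall to 6h was 0.40 ± 0.12 on carbohydrate (adjusted p = 0.0225, not past the threshold without carbohydrate 1h replicate 2) and 0.84 ± 0.12 on ethanol (adjusted p = 0.000167). Plin2, a lipid droplet coat protein, fell by 0.43 ± 0.11 and 0.64 ± 0.11 (adjusted p = 0.00951 and 0.000531), and Lpin1, a phosphatidate phosphatase, by 0.37 ± 0.11 and 0.61 ± 0.11 (adjusted p = 0.0138 and 0.000482).

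**Figure D5:**
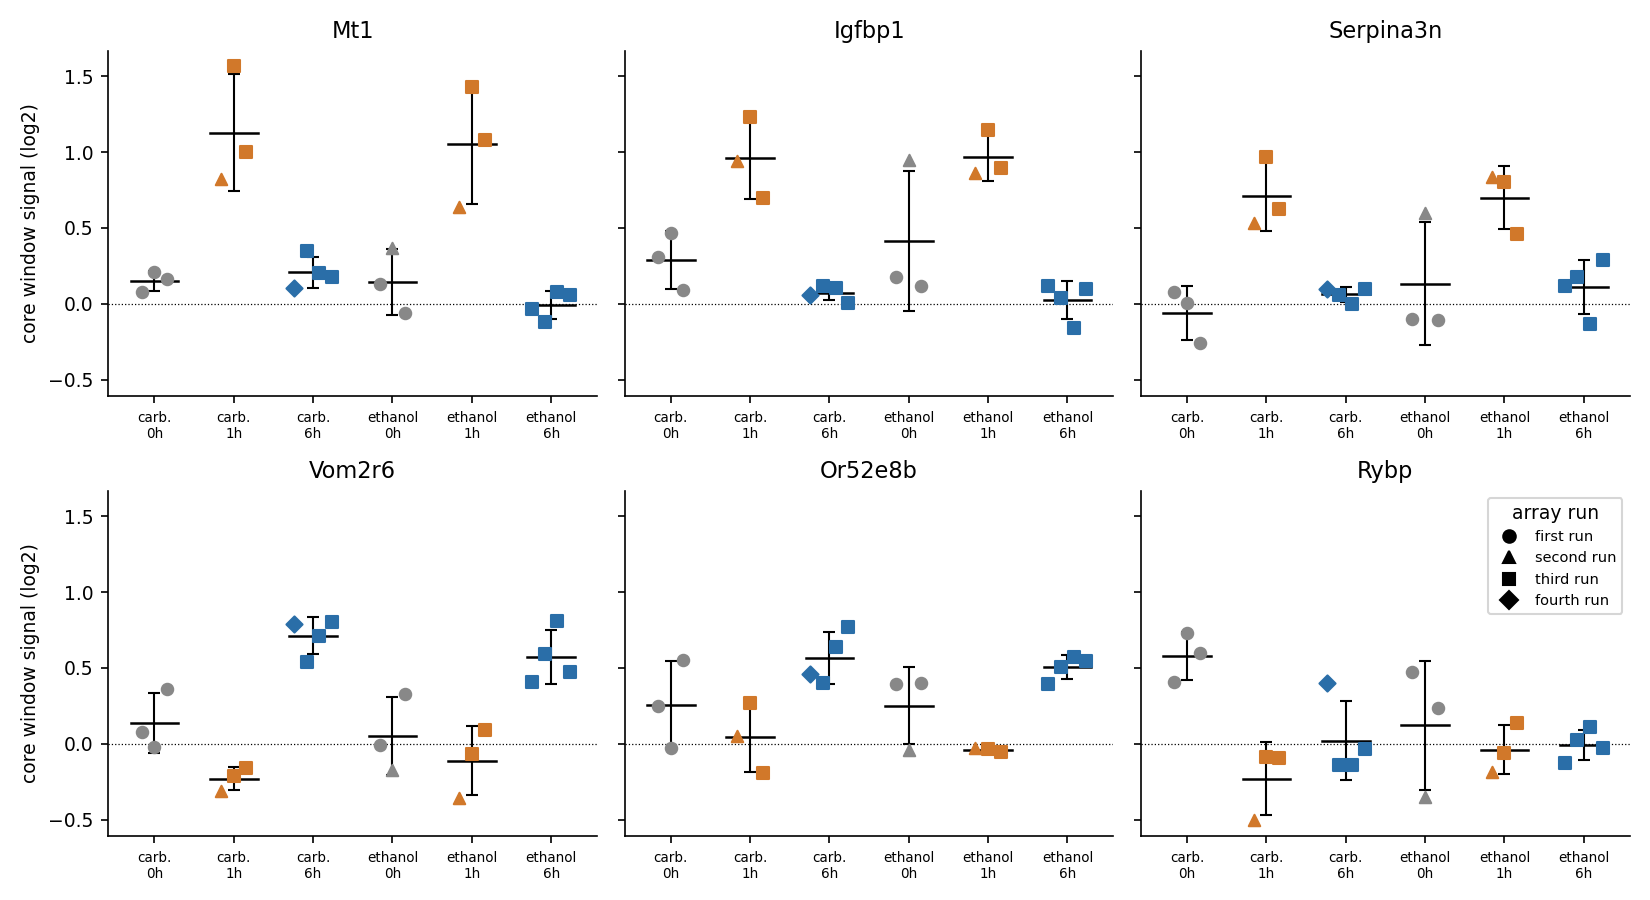
Core window signal (mean log2 value of the probes within 500 bp of the start, peaks positive) at Mt1, Igfbp1, Serpina3n, Vom2r6, Or52e8b and Rybp by diet and time ("carb." is carbohydrate); each symbol is 1 array, its shape the array run, and bars give mean and SD. In the top row the 1h arrays are the highest at Mt1, ethanol 0h replicate 2 lies among them at Igfbp1 (0.95) and Serpina3n (0.60), and at Vom2r6 and Or52e8b the 6h arrays are above those of 1h.

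Ribosomal protein genes, whose products are needed for growth, had more bound starts on ethanol than on carbohydrate at 1h and 6h, in value. Of 38 starts, 8 were bound on carbohydrate (21.1%, against 5.16% of all starts) and 12 on ethanol (31.6%, against 6.27%) at 1h. At 6h 3 and 5 were bound (7.89% and 13.2%, against 9.69% and 7.93% of all starts), so that the carbohydrate share was near that of all starts. Between 1h and 6h, 6 fell on carbohydrate (15.8%, against 10.8% of all starts, with a median of −0.08 against −0.06) and none rose. On ethanol 17 fell (44.7%, against 16.3%; median −0.26 against −0.09) and none rose. With the arrays scaled to the same spread 3 and 13 fell. No start in the list passed the test of the diets at 1h. Rpl10 had signals of 0.25, 0.79 and 0.59 on carbohydrate and 0.42, 1.00 and 0.78 on ethanol at 1h, and at most 0.16 on any 6h array. It fell by 0.46 ± 0.12 (adjusted p = 0.00961) and 0.68 ± 0.12 (adjusted p = 0.000545). Rpl8 had a core peak on all 6 arrays at 1h and on 4 of 8 at 6h, and differed by −0.40 ± 0.16 on carbohydrate (adjusted p = 0.0658) and fell by 0.47 ± 0.16 on ethanol (adjusted p = 0.0271).

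Of 27 cell cycle gene starts 7 (25.9%, against 51.4% of all starts) had a core peak on any array, and 2 were bound on carbohydrate at 1h (7.41%, against 5.16% of all starts) and 0 on ethanol. Cdk4, a G1 kinase, was 1 of the 2 and fell from 1h to 6h on carbohydrate by 0.66 ± 0.11 (adjusted p = 0.000372), while on ethanol it differed by −0.15 ± 0.11 (adjusted p = 0.322). Among 22 liver transcription factor starts, 2 were bound on carbohydrate and 4 on ethanol at 1h (9.09% and 18.2%, against 5.16% and 6.27% of all starts), and 3 and 7 fell by 6h (13.6% and 31.8%, against 10.8% and 16.3%). Atf4, a factor of the stress response, fell by 0.48 ± 0.12 and 0.72 ± 0.12 (adjusted p = 0.00594 and 0.000397). The comparison list of neuronal and testis genes had 1 and 3 of 29 starts bound at 1h (3.45% and 10.3%, against 5.16% and 6.27% of all starts) and 4 and 3 at 6h (13.8% and 10.3%, against 9.69% and 7.93%). It had 2 rises and 4 falls from 1h to 6h on each diet, and its falls, 13.8%, were near the 10.8% and 16.3% of all starts.

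Promoters of genes that mark liver cell types were also read, as promoters only, since the arrays measure DNA. Of 9 Kupffer cell and macrophage marker starts, 2 (22.2%) were bound in each diet at 1h, against 5.16% and 6.27% of all starts. At 6h 1 (11.1%) was bound in each diet, against 9.69% and 7.93%. From 1h to 6h 2 rose (22.2%) and 1 fell (11.1%) on carbohydrate, against 10.2% and 10.8% of all starts. On ethanol none rose and 2 fell (22.2%, against 16.3%). Cd68, a macrophage lysosomal protein, had signals of 0.71, 1.00 and 0.65 on carbohydrate and 0.93, 0.53 and 0.35 on ethanol at 1h, and from −0.25 to −0.04 on the 8 arrays at 6h. It fell by 0.96 ± 0.15 (adjusted p = 0.000285) and 0.76 ± 0.15 (adjusted p = 0.000951). Of 7 hepatocyte markers 1, Alb, the gene of serum albumin, was bound, on carbohydrate at 1h. Of 9 stellate cell, 5 endothelial, 5 cholangiocyte and 11 lymphocyte and neutrophil marker starts, 0, 0, 0 and 1 were bound on carbohydrate at 1h and none on ethanol. At 6h 0, 2, 0 and 1 were bound on carbohydrate and 1, 1, 0 and 1 on ethanol. The 2 endothelial starts were 40% of that list, and the lymphocyte and neutrophil start 9.09%, against 9.69% of all starts. On ethanol the shares were 11.1%, 20%, 0% and 9.09%, against 7.93%. Lists this short move by a large share with 1 start.

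Against 0h, 1h showed rises in the same liver lists on carbohydrate and few falls: 8 of 26 acute phase, 10 of 29 amino acid and glucose, 5 of 40 immediate early and 4 of 44 NF-kB target starts rose, and none fell. These rises were 30.8%, 34.5%, 12.5% and 9.09% of the lists, against 5.13% of all starts that rose and 2.9% that fell. On ethanol 3, 0, 2 and 0 of them rose, where 0.13% of all starts did. Gigyf1, an adaptor of growth factor receptors, had signals of −0.19, −0.18 and −0.25 at 0h and 0.76, 0.71 and 0.69 at 1h on carbohydrate, a rise of 0.93 ± 0.13 (adjusted p = 0.00126). On ethanol its signals were −0.10, 0.59 and −0.20 at 0h and 0.55, 0.53 and 0.59 at 1h, a difference of 0.46 ± 0.13 (adjusted p = 0.117). Rybp, a Polycomb protein, went the other way on carbohydrate. Its signals there were 0.41, 0.73 and 0.60 at 0h and −0.51, −0.09 and −0.09 at 1h, a fall of 0.81 ± 0.15 (adjusted p = 0.00505), and on ethanol the difference was −0.16 ± 0.15 (adjusted p = 0.735). With the array run as a term, none of the named rises and falls between 1h and 0h on either diet passed the threshold. For 10 of those on carbohydrate the sign was turned. Here too the term cannot tell the run from ethanol 0h replicate 2. Of 41 single-gene differences that use the carbohydrate 0h arrays, 15, 16 and 13 lost their call without 0h replicate 1, 2 or 3. Of 18 that use the ethanol 0h arrays, 18, 10 and 8 lost it. Counts for lists against 0h were not made with arrays left out.

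At 6h a large share of the core promoters with peaks were those of olfactory, vomeronasal and taste receptors, a grouping made after the values were seen. These families held 9.12% of all starts, and 588 of the 1412 starts bound on carbohydrate at 6h (41.6%) and 558 of the 1155 on ethanol (48.3%). Olfactory receptors detect odorants in the nose, and vomeronasal receptors detect pheromones. Of 1184 olfactory receptor starts, 525 were bound on carbohydrate (44.3%, against 9.69% of all starts) and 488 on ethanol (41.2%, against 7.93%) at 6h. At 1h 39 (3.29%) and 7 (0.591%) were bound, against 5.16% and 6.27% of all starts. At 0h 15 (1.27%) and 66 (5.57%) were, against 1.75% and 1.74%. Of 144 vomeronasal and taste receptor starts, 63 and 70 were bound at 6h (43.8% and 48.6%) and 2 and 1 at 1h (1.39% and 0.694%). At 0h 6 and 10 were (4.17% and 6.94%). On ethanol both families thus lay above the share of all starts at 0h too. At 6h against 1h, 624 olfactory receptor starts rose and 19 fell on carbohydrate, and 644 rose and 2 fell on ethanol. The rises were 52.7% and 54.4% of the family, against 10.2% and 9.86% of all starts (medians 0.29 and 0.28, against −0.06 and −0.09). Of the vomeronasal and taste receptor starts 96 rose and none fell on carbohydrate, and 98 rose and 1 fell on ethanol, or 66.7% and 68.1% that rose. These genes lie in clusters of near-identical copies that a tiling probe may not tell apart, so values of single receptors are uncertain. Their promoters are poor in G and C, and the correlation of G and C content with signal was at most −0.332 on every 6h array. The part of base composition in these calls was not tested.

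Vom2r6, a vomeronasal receptor, had core peaks on all 8 arrays at 6h and on carbohydrate 0h replicate 3. Its core window signals on carbohydrate were 0.07, −0.02 and 0.36 at 0h, −0.31, −0.22 and −0.16 at 1h, and 0.79, 0.54, 0.71 and 0.80 at 6h. On ethanol they were −0.01, −0.17 and 0.33 at 0h, −0.36, −0.07 and 0.09 at 1h, and 0.41, 0.59, 0.81 and 0.47 at 6h. Both 0h arrays that resembled 6h, replicates 3, were the highest of their groups. It rose from 1h to 6h by 0.94 ± 0.13 (adjusted p = 0.000157) and 0.68 ± 0.13 (adjusted p = 0.000664). Or52e8b, an olfactory receptor, had core peaks on 12 arrays, 8 of them at 6h, with signals of 0.46, 0.40, 0.63 and 0.77 on carbohydrate and 0.39, 0.51, 0.57 and 0.54 on ethanol there. Its signals at 1h were 0.05, 0.27 and −0.19 and −0.03, −0.04 and −0.05, below every 6h array. The rises were 0.52 ± 0.13 (adjusted p = 0.00699) and 0.54 ± 0.13 (adjusted p = 0.00482).

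Promoters outside the receptor families also gained signal by 6h. Adgrf5, an adhesion receptor of lung and endothelium, had a core peak on all 8 arrays at 6h and on none at 0h or 1h. Its signals at 6h were 0.54, 0.53, 0.55 and 0.58 on carbohydrate and 0.24, 0.32, 0.39 and 0.50 on ethanol. At 1h they were 0.06, 0.38 and 0.07 and then −0.04, 0.10 and 0.11 on ethanol, so that 1 carbohydrate array at 1h overlapped the 6h arrays of ethanol. It rose by 0.38 ± 0.11 on carbohydrate (adjusted p = 0.0187) and 0.31 ± 0.11 on ethanol (adjusted p = 0.0467). Snx3, a sorting nexin of endosomes, had a core peak on 4 of 4 carbohydrate arrays and 1 of 4 ethanol arrays at 6h, with signals of 0.53, 0.82, 0.78 and 0.73 and of 0.25, 0.08, 0.45 and 0.33. From 1h it rose by 0.48 ± 0.11 on carbohydrate (adjusted p = 0.00414) and differed by 0.19 ± 0.11 on ethanol (adjusted p = 0.216). No start passed the test of the diets at 6h.

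The largest falls from 1h to 6h on carbohydrate included promoters without a place in the lists. Nupr1, a stress-induced chromatin protein, had signals of 0.62, 0.78 and 0.39 at 1h and −0.74, −0.68, −0.59 and −0.52 at 6h, a fall of 1.23 ± 0.21 (adjusted p = 0.000372). On ethanol its 1h arrays spread over 1.08, 0.37 and −0.16, and it fell by 0.87 ± 0.21 (adjusted p = 0.00374). Tcp10b, a testis gene, fell by 1.09 ± 0.16 on carbohydrate (adjusted p = 0.000205), from 0.81, 0.61 and 0.51 to values between −0.51 and −0.33. On ethanol the difference was −0.08 ± 0.16 (adjusted p = 0.741). Agap3, a GTPase-activating protein of neurons, had a core peak on all 6 arrays at 1h and fell by 0.58 ± 0.19 and 0.81 ± 0.19 (adjusted p = 0.0342 and 0.00434). On carbohydrate its call was lost in 5 of the 7 fits that left out 1 array.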

How the data were processed

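NF-kB p65 ChIP-chip on NimbleGen promoter arrays was read from the authors' deposited files. Per the deposited table, each of 713735 probes has 1 log2 ratio per array; the log base, centring and direction were not stated, and Cy5 held p65 DNA while Cy3 held input DNA per the channel labels but IgG DNA per the labelling text. The authors' peak lists give for each peak its position, the listed starts, a peak score and, per the file headers, an FDR, which is a p-value type measure (0.19961 at most). The peak caller is not given in the sources used here, nor is the genome build.

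Deposited values were multiplied by −1, centred on each array's median and averaged over probes within 500 bp of each start (at least 4 probes). Group means were fitted with limma 3.58.1 (R 4.3.3, eBayes with trend, 20 arrays). Numbers, shares, median scores and lengths were compared by exact permutation tests over arrays, within diet or time, with Benjamini-Hochberg adjustment (Python 3.11.15, numpy 2.4.6, pandas 2.3.3, scipy 1.17.1, matplotlib 3.10.9). The fit was tested on simulated data. Labels number biological replicates without naming animals, so p-values measure the spread between arrays, which may be technical, and their number limits the precision. By the identifiers 4 animals gave 2 arrays each, and no test took this pairing into account. Replicate numbers showed no steady pairing of the arrays, except that at 1h arrays of both diets with the same number shared a slide. At most 0.248% of probe values were identical between any 2 arrays.

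Genes named are those with core peaks on the most arrays, the 5 largest rises and falls of each contrast among starts that passed and had a core peak on at least 2 arrays, and up to 4 members of each list that passed or were bound; 1 gene the rule names is not reported here. The members, lists, tests and this rule were chosen with earlier results of these data known. Promoter sequences came from RefSeq (GRCr8). Alternatives were the promoter distance, a stricter FDR, equal numbers of peaks, array scaling, run, slide and replicate terms, and leaving out each array.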

Additional observations from a re-analysis of the deposited data

Results flagged for a closer look

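Among the core window signals of the genes named for a comparison, 148 groups of 4 arrays were examined for a single array far from the rest, by its gap to the nearest other array over the range of the group. The limit of 0.829 was passed in 8 of them, and chance flags about 1 in 20. On the carbohydrate diet at 6h, Gstm1 had the highest value, 0.9803, with 1 array at 0.13 and the other 3 at 0.00. Vom2r7 had 0.9429, with replicate 1 at 0.59 and the others at 0.25 to 0.27. Vom2r65 had 0.9198, with replicate 2 at 0.55 and the others at 0.80 to 0.82. Dkkl1 had 0.877, with replicate 1 at −0.85 and the others at −0.33 to −0.26; replicate 1 was the only array of the fourth run. On the ethanol diet at 6h, replicate 3 stood apart at Eif4ebp2 (0.8787; −0.56 against −0.32 to −0.29), at Ly49s4 (0.8477; 0.74 against 0.44 to 0.49) and at Tcp10b (0.8431; −0.44 against 0.03 to 0.11). At Itih3 it was replicate 4 (0.8707; 0.04 against −0.13 to −0.11). Groups of 3 arrays were not examined. None of 12 tests of a diet difference that changed with time passed.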

How the results depend on the processing

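Of the differences in the core promoter peak measures and counts of calls, 659 values under alternatives kept their direction and side of the threshold. With core peaks taken to 250 bp, the 6h against 0h share difference was 3.69 points and the diet difference in length −3.01 bp. At 1000 bp, share differed by −2.51 (6h against 0h) and −5.18 points (6h against 1h), score by 0.00226 between diets, and length by −3.97 bp between diets, −6.42 bp between 1h and 0h and −18.6 bp between core and other peaks. With FDR of 0.05 or below, counts differed by 336 (1h) and 248 (6h) from 0h, both now past the threshold, share by 11.7 (6h against 0h) and 7.77 points (6h against 1h), length by 187 bp and score by −0.00321 (6h against 0h), length by −2.03 bp between diets, and core and other scores by 0.00392. With the same number of peaks per array, counts differed by −46.4 between diets, 257 (6h against 0h) and 152 (6h against 1h), the last 2 past the threshold, share by 8.93 and 5.30 points, length by 80.0 and 77.3 bp, and between diets score by 0.0275 and length by −8.28 bp.

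Calls are given as the percent of the 14570 starts. At 250 bp 4.60%, 0%, 5.05% and 0% were called (1h against 0h on carbohydrate and ethanol, 6h against 0h on carbohydrate and ethanol) and 13.1% (6h against 1h on ethanol). With arrays scaled to the same spread 0% (1h against 0h on ethanol), 1.94% (6h against 0h on ethanol) and 10.4% (6h against 1h on carbohydrate) were called. With the run as a term they were 0.226% (diets at 1h), 0.0275% and 0.0275% (1h against 0h), and 2.37% and 7.25% (6h against 0h). With the slide as a random block, 0.117% passed for 6h against 0h on ethanol. With only the groups compared, 0% (1h against 0h on ethanol), 21.9% and 0.048% (6h against 0h) passed. In the third run 1.14% and 0.199% passed between diets at 1h and 6h, and the diet difference in the downstream share was −6.45 points. The cause was not tested for any of these.

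Arrays with the same replicate number showed no steady likeness (correlations of deviations from −0.50 to 0.58 over 22 pairs). At 1h, however, arrays of both diets with the same number shared a slide, with correlations of 0.58, −0.08 and 0.13 in replicate order. The main fit did not use this pairing. With the slide as a random block or with the replicate block, no start passed between the diets at 1h. With the replicate block 0.899% and 4.06% of starts passed on ethanol for 1h and 6h against 0h, and the 6h against 0h share difference was 7.25 points; no other count of calls moved by over 1.5 times and no other call changed.

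Leaving out 1 array at a time, the diet differences ran from −86.1 to 111 core peaks, from −0.0394 to 0.0266 in score, from −3.36 to 18.0 bp in length, from −0.0214 to 2.98 points in downstream share and from −2.78 to 0.0553 points in G and C content. Those of 6h against 0h ran from 324 to 518 core peaks, from 5.41 to 8.10 points in share and from −0.000655 to 0.0875 in score. Core peaks at 6h against 1h ran from −236 to 59.0, and G and C content at 1h against 0h from 3.86 to 8.11 points. Calls ran from 0% to 0.769% (diets at 1h), from 1.02% to 7.12% and 0% to 7.74% (1h against 0h on carbohydrate and ethanol), from 0.0412% to 15.2% and 0% to 15.1% (6h against 0h), and from 9.12% to 21.8% and 13.5% to 28.2% (6h against 1h).

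With the run as a term, differences between 1h and 0h on carbohydrate were −0.071 at Agap3, −0.13 at Hpx, −0.041 at Hpd, −0.25 at Ier3, −0.19 at Igfbp1, −0.17 at Ier2, −0.057 at Bcl2l1, −0.20 at Plin2, −0.23 at Rpl8 and −0.28 at Atf4. All 72 single-gene differences that could be fitted within the third run kept direction and call, but the genes were chosen with those same arrays in the fit. With the run as a term, 41 of 131 lost their call and 10 changed sign. With a window of 250 bp 31 of 119 lost their call, and with arrays scaled to the same spread 23 of 131. Arrays per group and the unknown scale of the deposited values limit precision, and weaker peaks were not analysed here.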
